A study of Mus musculus with 47 samples.

Results

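Olfactory epithelium of 21-day-old mice (P21) labelled for Kir2.1 was compared with that of wild-type mice of the same age, across all genes of a polyadenylated RNA sequencing study. The comparison used 6 of the study's 47 libraries, chosen by age alone: 3 from mice with the strain label OIVT;Kir2.1 (Kir) and 3 from mice with the strain label C57BL/6J (WT). Kcnj2 encodes Kir2.1, a potassium channel of the inward-rectifier family. The labels spell out neither OIVT nor the promoter and cells that drive the channel, name no littermate control, and do not say whether a library came from 1 animal or from pooled animals. The p-values therefore describe how far libraries scatter, and this scatter may be technical. The other 41 libraries covered P0, P3, P5, P7, P10 and P14 and entered the fit, where they help to estimate the spread.

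Inward-rectifier channels pass potassium near the resting potential and hold neurons at a negative voltage, so that an added Kir2.1 channel is used to make neurons harder to excite. Type I interferons bind a receptor whose signal activates a transcription factor complex. This complex binds a DNA element before interferon-stimulated genes, among them antiviral effectors and genes of antigen presentation by class I molecules of the major histocompatibility complex (MHC). Mature olfactory sensory neurons each express mainly a single odorant receptor and signal through the G protein Gnal, the adenylyl cyclase Adcy3 and the channel Cnga2, and their activity sets the level of some adhesion and axon genes.

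At P21 interferon-stimulated genes and class I MHC genes were higher in Kir than in WT, some by more than 8-fold, and few genes were lower. Levels are given as CPM, counts scaled to the TMM-normalized size of the library, fold changes are log2 values with their standard error, and a gene was called at a Benjamini-Hochberg adjusted p below 0.05 in edgeR's quasi-likelihood test over 19927 genes. In all, 151 genes were called (0.758% of genes tested), 130 higher (0.652%) and 21 lower (0.105%), and 1664 had an unadjusted p below 0.05 (8.35%). Of the called genes 134 were protein coding, 111 were higher and 10 lower by at least 2-fold, and 45 were higher by at least 8-fold. Their Kir and WT libraries did not overlap in any of the 151 cases. The call was made on these same libraries, so this separation is no further evidence. Of all genes tested 8.29% had every Kir library above WT and 10.6% had every Kir library below. Without Kir replicate 3, the library with the highest Kcnj2, 64 genes were called, 57 higher and 7 lower, and 59 of them were among the 151. Without WT replicate 3, 95 were called, 84 higher and 11 lower.

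**Figure D1:**
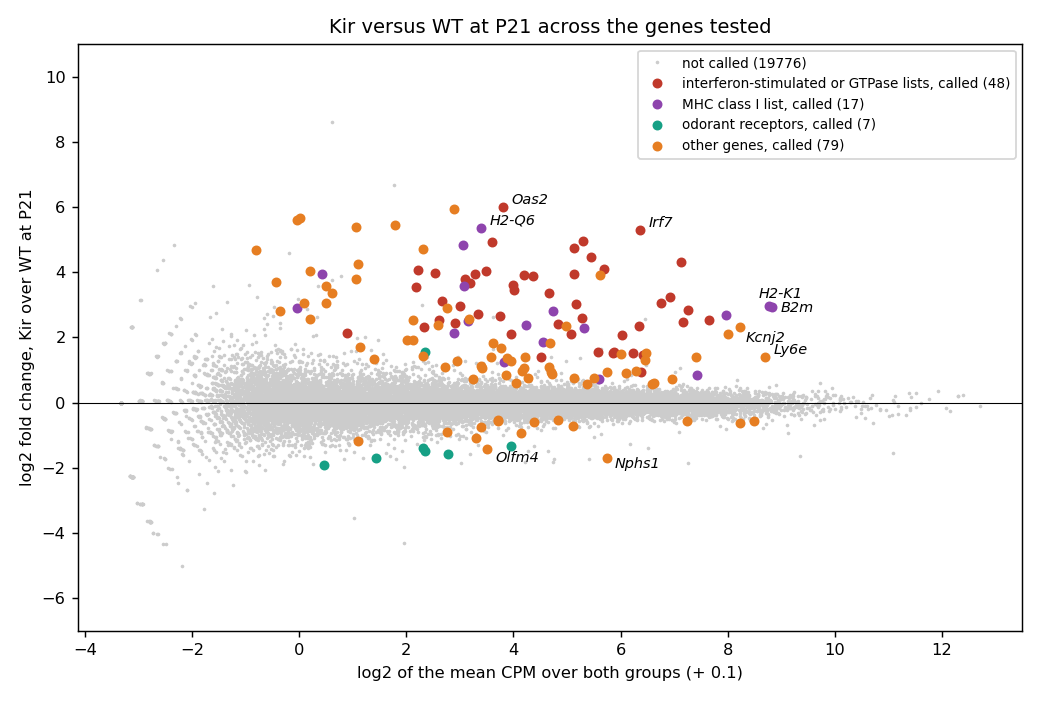
Log2 fold change of Kir over WT at P21 against the log2 of the mean CPM over both groups (with 0.1 added), 1 point per gene tested. Coloured points are the 151 called genes and grey points the other genes. Most called genes lie above 0, with Oas2 at 5.99 and H2-K1 at 2.95, and Nphs1 lies at -1.70.

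The 6 libraries held 10714518 to 15461615 counts on genes, and 25843 to 29381 genes had a count. No library was a copy of another: the variance between replicates of a group was 7.24 to 24.26 times what counting error gives. By Xist and Y-linked genes Kir replicates 2 and 3 were female, while Kir replicate 1 and the 3 WT replicates were male: Xist stood at 500 and 426 CPM, by total gene counts, in the 2 female libraries and at 0.364 or less in the other 4. Genotype and sex therefore overlap in part at P21. With a term for sex in the fit of all ages, 139 genes were called, 115 higher and 24 lower, and 126 of the 151 kept their call. With the male P21 libraries alone, 1 Kir against 3 WT, 33 were called, all higher, and 31 of them were among the 151. The olfactory markers were present in all 6 libraries, with Omp, the marker of mature sensory neurons, at 1821 to 1891 CPM in Kir and 2303 to 2604 CPM in WT. Cyp2g1, a cytochrome P450 of supporting cells, stood at 4718 to 5736 CPM in Kir and 3740 to 6018 CPM in WT.

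Kcnj2 encodes the Kir2.1 named in the strain label (ENSMUSG00000041695, GRCm38 chromosome 11, 111066164 to 111076821). It stood at 209, 238 and 1050 CPM in Kir replicates 1, 2 and 3, against 93.6, 102 and 104 CPM in WT. All 3 Kir libraries lay above the WT libraries, and replicate 3 stood at 4.70 times the mean of replicates 1 and 2. The log2 fold change of Kcnj2 was 2.32 ± 0.53, with an edgeR adjusted p of 0.0192. Without Kir replicate 3 it was 1.16 (adjusted p = 0.589), and without WT replicate 1, 2 or 3 it was 2.28, 2.34 and 2.35 (adjusted p = 0.124, 0.111 and 0.105), so that 4 of 6 leave-outs ended the call. The male P21 libraries alone gave 1.07 (adjusted p = 1), and the 6 P21 libraries fitted by themselves 2.32 (adjusted p = 0.314). Whether the deposited counts hold reads of a transgene, of the endogenous gene or of both cannot be told from the gene table. At P14 the 3 Kir libraries held 1390 to 1650 CPM of Kcnj2, so Kir replicates 1 and 2 at P21 lay below that range, as did replicate 3. Kir libraries also ranged widely at P3, from 132 to 959 CPM, and at P7, from 146 to 1140 CPM. The genotype difference of Kcnj2 at P21 was -1.87 ± 0.72 log2 units relative to that at P14, which was not called (adjusted p = 1). Of the other 11 inward-rectifier genes tested none was called. The 3 of them with the smallest p, Kcnj13, Kcnj16 and Kcnj1, had log2 fold changes of 0.24, 0.36 and 0.30.

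**Figure D2:**
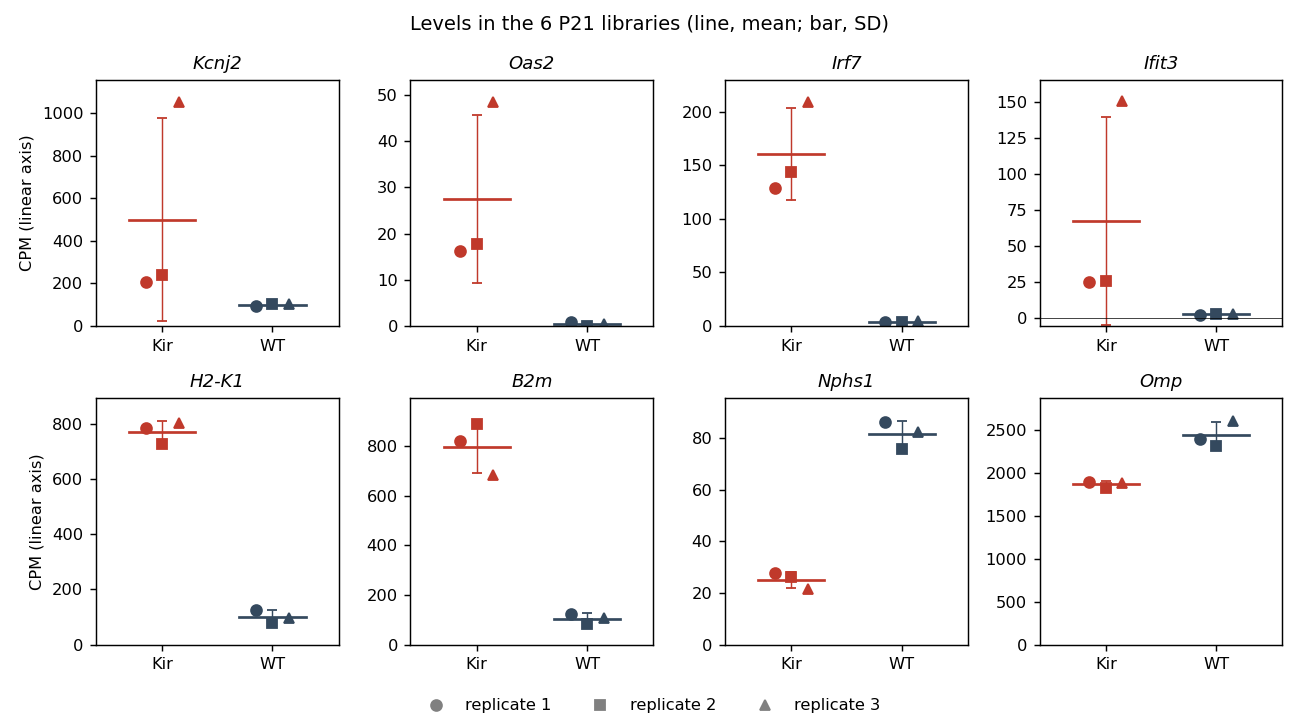
CPM of 8 genes in the 3 Kir and 3 WT libraries at P21, with the symbol giving the replicate number, the line the mean and the bar the SD. Kcnj2, Oas2 and Ifit3 are highest in Kir replicate 3, H2-K1 is at 727 to 805 CPM in Kir and 77.2 to 125 CPM in WT, and Nphs1 is lower in Kir.

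The DNA before some of these genes is shown because interferon-stimulated genes moved together, and the letters GAAANNGAAA, the core of the interferon-stimulated response element, can be looked for there. Sequences are RefSeq's on GRCm38.p6, each 300 bases long with 250 bases before the annotated start, 5′ to 3′ on the gene's strand, and capitals mark GAAANNGAAA or its other strand, TTTCNNTTTC. The windows are chr19:34583279-34583578 (plus strand) for Ifit3, chr4:156200769-156201068 (minus strand) for Isg15, chr15:77728822-77729121 (plus strand) for Apol9b and chr2:122147437-122147736 (plus strand) for B2m, which all rose. Ifit2, at chr19:34550444-34550743 (plus strand), is the neighbour of Ifit3 that was not called, and its first listed start is shown.
Ifit3: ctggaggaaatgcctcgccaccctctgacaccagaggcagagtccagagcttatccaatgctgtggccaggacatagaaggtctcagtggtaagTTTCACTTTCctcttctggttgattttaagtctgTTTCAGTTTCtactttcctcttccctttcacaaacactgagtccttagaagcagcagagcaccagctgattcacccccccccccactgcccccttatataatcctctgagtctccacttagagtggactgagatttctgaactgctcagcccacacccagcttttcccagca
Isg15: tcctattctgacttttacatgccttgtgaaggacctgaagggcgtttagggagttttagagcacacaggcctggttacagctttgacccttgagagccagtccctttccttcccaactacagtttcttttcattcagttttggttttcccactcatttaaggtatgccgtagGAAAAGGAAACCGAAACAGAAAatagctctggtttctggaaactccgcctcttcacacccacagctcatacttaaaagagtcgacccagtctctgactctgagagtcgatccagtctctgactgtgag
Apol9b: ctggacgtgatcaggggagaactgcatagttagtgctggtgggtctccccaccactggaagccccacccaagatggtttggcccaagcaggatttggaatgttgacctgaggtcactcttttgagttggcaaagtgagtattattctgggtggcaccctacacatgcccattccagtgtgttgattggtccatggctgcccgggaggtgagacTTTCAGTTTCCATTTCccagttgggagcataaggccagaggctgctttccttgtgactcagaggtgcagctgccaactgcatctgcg
B2m: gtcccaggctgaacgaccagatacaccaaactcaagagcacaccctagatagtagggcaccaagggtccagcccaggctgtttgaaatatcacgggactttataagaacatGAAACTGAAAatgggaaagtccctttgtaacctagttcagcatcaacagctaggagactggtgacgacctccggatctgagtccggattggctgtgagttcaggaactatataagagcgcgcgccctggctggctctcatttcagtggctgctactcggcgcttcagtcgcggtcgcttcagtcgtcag
Ifit2: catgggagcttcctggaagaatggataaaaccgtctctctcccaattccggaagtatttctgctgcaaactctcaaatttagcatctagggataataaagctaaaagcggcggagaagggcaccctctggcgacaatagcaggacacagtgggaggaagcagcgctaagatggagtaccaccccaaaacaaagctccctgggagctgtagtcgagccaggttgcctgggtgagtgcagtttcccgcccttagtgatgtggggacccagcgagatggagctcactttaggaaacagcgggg
The Ifit3 window held 2 matches, which begin 156 and 122 bases before the start. Isg15 held 3 overlapping matches, the first 78 bases before the start, and Apol9b held 2 overlapping ones, the first 37 bases before it. B2m held 1, which begins 139 bases before the start, and the Ifit2 window held none. A single window per gene is shown, the first by position, so a match at any other listed start of Ifit2 would not be seen here. Whether a match bears on a rise was not tested.

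Of the 130 genes called higher, 93 had a promoter in the RefSeq table by symbol, and 42 of these (45.2%) had a match in at least 1 of their windows, against 3.96% of the 13898 genes tested that had a promoter in the table and 3.99% of all 27025 genes in it. Counted by window, 40.4% of 114 windows of the genes called higher held a match, against 3.44% of all 32851 windows. None of the 14 genes called lower that had a promoter there held a match. Among interferon-stimulated genes 16 of 30 with a promoter had a match, among interferon-inducible GTPases 9 of 10 and among class I genes 5 of 19. A match describes the letters of the window, not a bound site.

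Interferon-stimulated genes were higher in Kir: of 43 listed and tested members 40 rose and none fell. This was 93.0% of the list against 0.652% of genes tested, with a median log2 fold change of 3.03 against -0.0033 over all genes. The list, like the others used here, was chosen with earlier results of these data known, so its share is no independent test. Oas2, an oligoadenylate synthetase that senses double-stranded RNA (ENSMUSG00000032690, GRCm38 chromosome 5, 120730333 to 120749853), stood at 16.3, 17.7 and 48.4 CPM in Kir, against 0.867, 0.0920 and 0.350 CPM in WT. It had the largest fold change among called genes of at least 5 CPM, 5.99 ± 0.90 (edgeR adjusted p = 0.000128), on 923 counts in Kir and 15 in WT. Irf7, a transcription factor that amplifies the interferon response, stood at 129, 143 and 209 CPM in Kir, against 3.57, 3.76 and 4.90 CPM in WT. Its log2 fold change was 5.28 ± 0.77 (adjusted p = 9.88e-05), and the Kir libraries lay far above all WT libraries. The count of members called was 23 without Kir replicate 3, 30 to 32 without a WT replicate, 40 without Kir replicate 1 or 2, and 15 with the male P21 libraries alone.

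Of the complex that interferon activates, Irf9, the DNA-binding subunit, stood at 113, 120 and 174 CPM in Kir, against 25.8, 23.2 and 31.2 CPM in WT (2.34 ± 0.29, adjusted p = 4.91e-06). Of 12 Irf genes tested 3 were called, and their median log2 fold change was 0.13. Stat2, which binds Irf9 in it, rose by a log2 fold change of 1.51 ± 0.29, and its call ended without Kir replicate 3 (0.95, adjusted p = 0.149). Ddx58 and Ifih1, the cytosolic RNA sensors RIG-I and MDA5, rose by 0.93 ± 0.20 and 2.07 ± 0.35, and Dhx58, another receptor of that family, by 3.60 ± 0.61. Ddx58 lost its call in 3 leave-outs (adjusted p up to 0.246). Zbp1, a sensor of Z-form nucleic acid, was at 4.45, 3.95 and 17.4 CPM in Kir and at 0.771, 0.367 and 0.420 CPM in WT, and its adjusted p was 0.0511 without Kir replicate 3. Of 14 interferon and interferon receptor genes 8 did not pass the filter on low counts, and none of the 6 tested was called, with log2 fold changes of -0.24 for Ifnlr1, -0.12 for Ifnar1, 0.06 for Ifnar2 and 0.14 for Ifngr2.

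Antiviral effectors were among the largest rises. Of the Oas family, whose product activates an RNA-cutting enzyme, all 9 genes tested rose. On chromosome 5, 7 of them are the 7 genes tested in a stretch (120730333 to 120907521) whose ends were set by called genes. This family, like others named from here on that are not among the lists, was chosen after its values were seen. Its members Oas1b, Oasl1 and Oas1c lost the call without Kir replicate 3 (edgeR adjusted p = 0.1015, 0.163 and 0.257). Ifi44 stood at 37.6, 46.1 and 144 CPM in Kir, against 2.70, 2.11 and 2.45 CPM in WT (4.96 ± 0.79, adjusted p = 0.000271). Rtp4, an interferon-induced member of the receptor-transporting proteins, stood at 54.9, 61.5 and 133 CPM in Kir, against 3.66, 3.67 and 3.92 CPM in WT (4.47 ± 0.55, adjusted p = 5.05e-06). Usp18, the protease that removes Isg15 from proteins, rose by 4.11 ± 0.63, and Isg15, a ubiquitin-like modifier, by 3.95 ± 0.76, although Isg15 lost its call without Kir replicate 3 (3.06, adjusted p = 0.0709). Apol9b and Apol9a, apolipoprotein L genes, rose by 5.93 ± 0.81 and 5.45 ± 0.81, and were the called members among 7 genes of that family tested. Ifitm3, a membrane protein that blocks viral entry, rose by 2.48 ± 0.38, and Bst2, which tethers virus particles, by 3.03 ± 0.51. Trim25, the ubiquitin ligase that acts on RIG-I, rose by 1.53 ± 0.20, one of 8 Trim genes called among 49. Of these 8 genes 2, Trim25 and Trim30a, kept the call without Kir replicate 3.

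Of 6 Ifit genes tested, whose products bind viral RNA, 3 were called, all higher. Ifit3 stood at 24.8, 25.8 and 151 CPM in Kir, against 1.93, 2.57 and 2.94 CPM in WT, so that replicate 3 held 5.95 times the mean of the other Kir libraries. Its log2 fold change was 4.74 ± 1.06 (adjusted p = 0.0161), and it was not called without Kir replicate 3 (3.33, adjusted p = 0.277) or without WT replicate 1, 2 or 3 (adjusted p = 0.124, 0.113 and 0.105). Its near-copy Ifit3b behaved alike, at 4.94 ± 1.02, with the call lost in the same 4 leave-outs (adjusted p up to 0.125), and reads that fit both copies were not counted to either. Ifit1 rose by 3.07 ± 0.68 and lost its call in those leave-outs too (adjusted p up to 0.118). Ifit2 was not called, at 14.4, 16.2 and 22.1 CPM in Kir and 26.9, 27.6 and 23.4 CPM in WT (-0.57 ± 0.26, edgeR adjusted p = 0.533, unadjusted p = 0.0330). All 3 Kir libraries lay below WT, as they did in 10.6% of all genes tested, and 8.35% of those had an unadjusted p below 0.05 in either direction. Ifit1bl1, at 0.53 ± 0.48, and Cmpk2, a mitochondrial nucleotide kinase at 0.15 ± 0.15, were the other members of the list that were not called, and Ifit2, Ifit1bl1 and Cmpk2 were named for that after their values were seen.

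**Figure D3:**
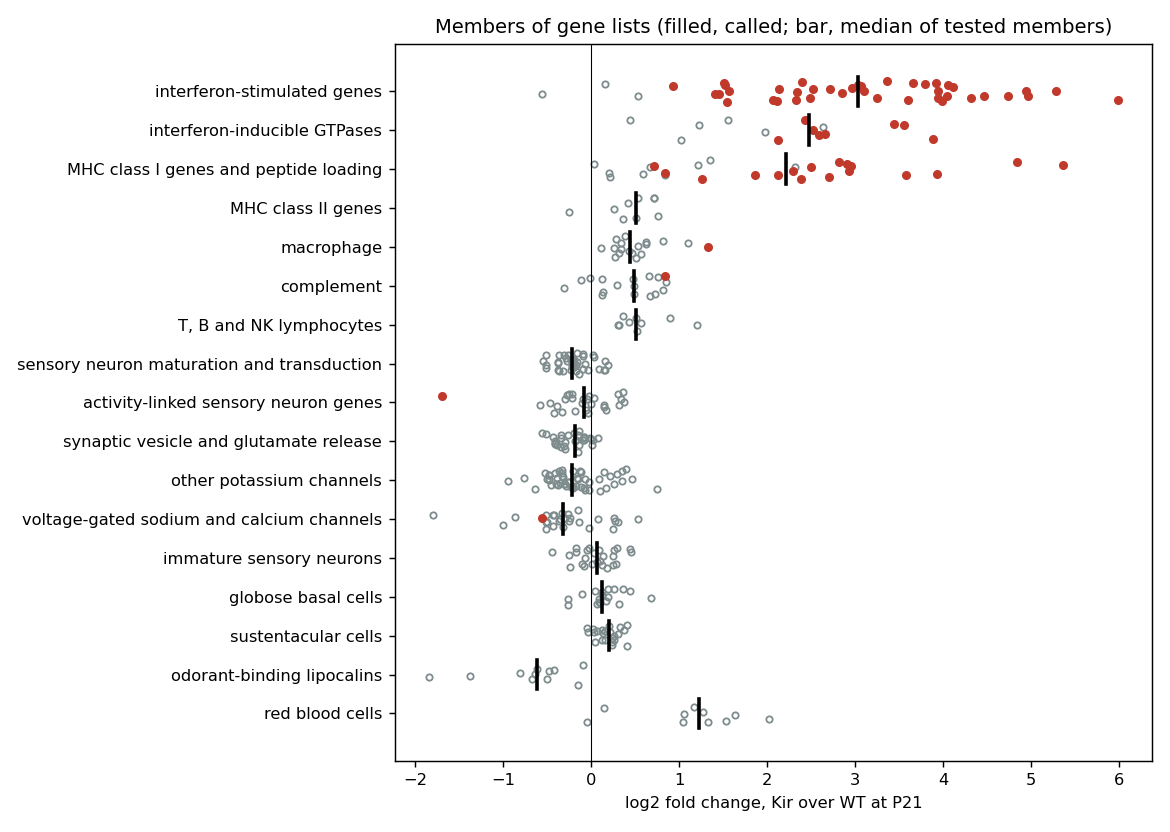
Log2 fold change of Kir over WT at P21 for the tested members of 17 gene lists, with filled points for called members and a bar at the list's median. The interferon-stimulated list has a median of 3.03, the GTPases 2.48 and the class I list 2.21, and the list of sensory neuron maturation and transduction -0.22.

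Of the interferon-inducible GTPases, which attack the vacuoles of intracellular microbes, 8 of 14 tested members rose (57.1%), with a median log2 fold change of 2.48 over the 14. Irgm1 stood at 48.6, 52.4 and 97.2 CPM in Kir, against 11.7, 9.45 and 11.8 CPM in WT (2.59 ± 0.41, adjusted p = 0.000223). Gbp3, a guanylate-binding protein, stood at 17.6, 17.1 and 52.9 CPM in Kir, against 3.66, 2.48 and 1.96 CPM in WT (3.45 ± 0.60, adjusted p = 0.000938). Iigp1 rose by 3.88 ± 0.74 and lost its call without Kir replicate 3 (3.04, adjusted p = 0.0627). Igtp rose by 2.66 ± 0.46 and Irgm2 by 2.12 ± 0.42, although Irgm2 was not called without Kir replicate 3 (1.69, adjusted p = 0.0868). The 6 members not called were Gbp2, Gbp4, Gbp5, Gbp6, Gbp9 and Tgtp1, all with a fitted rise, of 0.44 for Gbp4 to 2.63 for Tgtp1, at means under 9 CPM in Kir. Without Kir replicate 3, 4 members were called, and with the male P21 libraries alone none was.

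Class I MHC genes and genes of peptide loading rose in 17 of 26 cases (65.4%), with a median log2 fold change of 2.21. H2-K1, a classical class I heavy chain (ENSMUSG00000061232, GRCm38 chromosome 17, 33996017 to 34000347), stood at 785, 727 and 805 CPM in Kir, against 125, 77.2 and 98.0 CPM in WT. The Kir libraries lay within a narrow band, at 772 ± 40.4 CPM against 99.96 ± 23.8 CPM in WT (SD, n = 3 each), and the log2 fold change was 2.95 ± 0.34 (edgeR adjusted p = 2.70e-06). H2-D1, the other classical heavy chain, stood at 426, 411 and 460 CPM in Kir, against 72.9, 62.2 and 64.8 CPM in WT (2.70 ± 0.32, adjusted p = 2.70e-06). B2m, the light chain all class I molecules share, stood at 821, 891 and 684 CPM in Kir, against 123, 83.2 and 108 CPM in WT (2.93 ± 0.36, adjusted p = 4.88e-06). Here replicate 3 was the lowest Kir library. Per length, in the deposited TPM values, H2-K1 averaged 785 TPM in Kir and 102 TPM in WT, and B2m 1469 TPM in Kir and 201 TPM in WT.

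The non-classical heavy chains H2-Q6 and H2-Q7 rose more, by 5.36 ± 0.62 and 4.84 ± 0.57, from low levels in WT. H2-Q6 stood at 18.6, 14.8 and 27.95 CPM in Kir, against 0.867, 0.459 and 0.210 CPM in WT, and H2-Q7 at 14.03, 14.9 and 18.9 CPM in Kir, against 1.16, 0.367 and 0.210 CPM in WT. These genes are near copies of each other, and only uniquely placed reads were counted to them. H2-T23, which gives the ligand of an inhibitory receptor of natural killer cells, rose by 2.30 ± 0.36. For peptide supply, Tap1, a subunit of the peptide transporter, stood at 31.4, 34.8 and 72.8 CPM in Kir, against 8.96, 4.96 and 5.95 CPM in WT (2.81 ± 0.40, adjusted p = 5.04e-05). Psmb8 and Psmb9, immunoproteasome subunits, rose by 2.50 ± 0.31 and 2.13 ± 0.36, and Nlrc5, the transactivator of class I genes, by 3.58 ± 0.70. Nlrc5 lost its call without Kir replicate 3 (2.99, adjusted p = 0.0639) and without WT replicate 3 (adjusted p = 0.0646), and Tapbp, the chaperone tapasin, which rose by 0.84 ± 0.17, lost it without Kir replicate 3 (0.65, adjusted p = 0.123). The 9 members not called ran from 0.03 for Tapbpl to 2.32 for H2-Q1, which had a single count over the 6 libraries. Psmb10 (0.67 ± 0.18, adjusted p = 0.0767) was the nearest to the threshold. Without Kir replicate 3, 11 of the 26 were called, and with the male P21 libraries alone 9 were.

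Kir replicate 3, the library with the highest Kcnj2, also had the highest level of most interferon-stimulated genes. It was the library farthest from the WT mean in 118 of the 130 genes called higher, and in 46.0% of all genes tested. The 130 were called with replicate 3 included, and 75 of them lost the call without it. Their choice thus favours genes high in replicate 3, so counts over the 130 describe them and test nothing. In 92 of the 130 replicate 3 was at least 1.5 times the mean of Kir replicates 1 and 2. In 38 it was within 1.5 times, and in none lower by that factor. The median log2 ratio of replicate 3 to that mean (with 0.1 CPM added to each) was 1.03 over the interferon-stimulated list, 1.28 over the GTPases and 0.44 over the class I list, against -0.0057 over all genes tested. H2-K1 was 1.06 times and H2-D1 1.1 times that mean, while Ifit3 was 5.95 times and Mx1, an antiviral GTPase, 6.03 times. Mx1 rose by 4.05 ± 1.01 with an adjusted p of 0.0440 that reached 0.511 without replicate 3, and its call also ended without any 1 of the WT replicates. Ifi27l2a, a mitochondrial interferon effector, was at 205, 242 and 209 CPM in Kir and 21.9, 20.003 and 26.9 CPM in WT, so that it was level over the Kir libraries. Kir replicates 2 and 3 were female and replicate 1 was male, and the part of sex in this spread among the Kir libraries was not tested. With 3 libraries no relation of these levels to Kcnj2 can be tested.

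**Figure D4:**
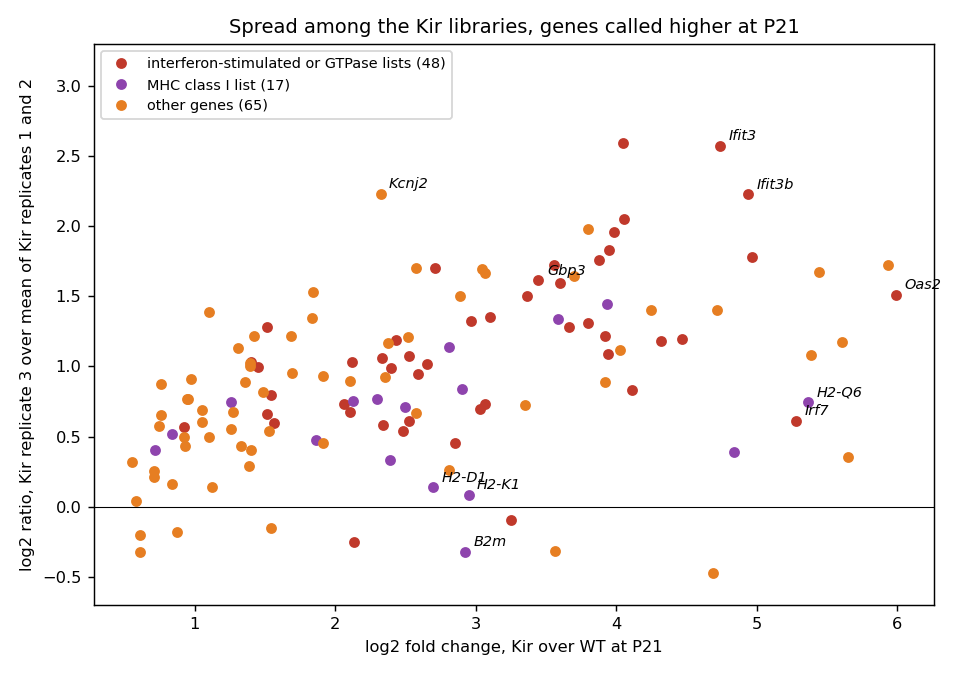
Log2 ratio of Kir replicate 3 to the mean of Kir replicates 1 and 2 against the log2 fold change at P21, for the 130 genes called higher. Most lie above 0, with Ifit3 and Kcnj2 near the top, H2-K1 and H2-D1 near 0 and B2m below it.

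Some called genes had called neighbours. A stretch was built from called genes of the same direction, each starting within 0.5 Mb of the previous one. It ran from the first to the last of them, so the called share within a stretch is high by construction. No share for other stretches was computed. Besides the Oas stretch, 6 of 23 tested genes between 33915899 and 34216321 of chromosome 17 (Tapbp, H2-K1, Psmb9, Tap1, Psmb8 and Tap2) and 5 of 9 between 35262730 and 35443773 (H2-D1, H2-Q4, H2-Q5, H2-Q6 and H2-Q7) rose. On chromosome 7, 5 of 7 tested genes between 104244457 and 104507849 rose, all of them Trim genes, led by Trim30a at 3.66 ± 0.56. On chromosome 11, 4 of 5 tested between 83002158 and 83190216 rose, all of them Schlafen genes, led by Slfn4 at 4.25 ± 0.81. Without Kir replicate 3 only Trim30a of these Trim genes and only Slfn4 of these Schlafen genes kept the call. Parp14, Dtx3l and Parp9, neighbours on chromosome 16 that act in ADP-ribosylation, rose by 1.45 ± 0.34, 1.57 ± 0.30 and 1.52 ± 0.29, and 5 of 12 Parp genes were called. Without Kir replicate 3 these neighbours lost their calls (adjusted p = 0.339, 0.0550 and 0.0639), as Parp14 did without any 1 of the WT replicates. These positions are from GENCODE M21 on GRCm38. Chromosome 17 had the largest share of its tested genes called, 1.78% against 0.758% of all.

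Markers of immune cells were measured beside these lists. Of 18 macrophage genes 1 rose, Fcgr1, the high-affinity antibody receptor, at 2.77, 3.68 and 4.37 CPM in Kir and 1.54, 1.74 and 1.05 CPM in WT (1.33 ± 0.32, adjusted p = 0.0302). All 18 had a fitted fold change above 0, with a median of 0.44, and none was at 0 counts in a group. The mean log2 CPM of the list was 3.06, 3.20 and 2.65 in Kir and 2.35, 2.68 and 2.46 in WT, so that the groups overlapped and Kir replicate 3 was the lowest Kir library. Of 17 complement genes 1 rose, C1qa, a chain of the first component that macrophages make, at 15.5, 20.1 and 19.9 CPM in Kir and 10.02, 10.001 and 10.98 CPM in WT (0.84 ± 0.21, adjusted p = 0.0346). Both calls were lost in 5 of 6 leave-outs, all but that of Kir replicate 1, with adjusted p up to 0.270 for Fcgr1 and 0.206 for C1qa. Siglec1, a macrophage lectin that interferon induces, rose by 3.57 ± 0.58 at 2.604, 2.602 and 2.094 CPM in Kir and 0.289, 0.184 and 0.140 CPM in WT; it was named after its values were seen. In bulk RNA more cells of a type and more RNA per cell cannot be told apart.

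No class II MHC gene of 9 was called, with a median of 0.51 and H2-Ab1 at 0.71 ± 0.28 (adjusted p = 0.410), although 5 had an unadjusted p below 0.05. None of 17 chemokine genes was called, and Cxcl10, a classical interferon target, stood at 0.588, 0.538 and 1.64 CPM in Kir and 0.482, 0.459 and 0.210 CPM in WT (1.28 ± 0.69, adjusted p = 0.658). Of 25 lymphocyte genes 9 could be tested and none was called, with a median of 0.51, and Cd4, at 2.69, 2.78 and 3.01 CPM in Kir and 1.25, 1.38 and 1.05 CPM in WT, had an adjusted p of 0.0780. None of 13 neutrophil and mast cell genes was called. The part of immune cells in the interferon-stimulated and class I results was not tested.

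Genes of sensory neurons mostly had small fitted differences below 0 that did not pass the test. Of 41 genes of neuron maturation and transduction none was called, 6 had an unadjusted p below 0.05, and 34 had a fitted fold change below 0, with a median of -0.22. Over all genes tested 50.6% were fitted below 0. In 19 all 3 Kir libraries lay below WT, 46.3% of the list against 10.6% of all genes tested, and in none did they lie above. Omp stood at 1891, 1821 and 1881 CPM in Kir and 2392, 2303 and 2604 CPM in WT (-0.38 ± 0.19, adjusted p = 0.594). Cnga4, a subunit of the transduction channel, stood at 242, 274 and 258 CPM in Kir and 357, 339 and 411 CPM in WT (-0.52 ± 0.18, adjusted p = 0.312). Slc17a6, the vesicular glutamate transporter of these neurons, stood at 210, 218 and 208 CPM in Kir and 303, 290 and 313 CPM in WT (-0.51 ± 0.20, adjusted p = 0.424). Of 31 synaptic vesicle genes none was called and 27 had a fitted fold change below 0, with a median of -0.18.

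Of other ion channels, the 29 sodium and calcium channel genes had a median log2 fold change of -0.32. All Kir libraries lay below WT in 12 of the 29, where 10.6% of all genes tested did. Cacna2d1, an auxiliary calcium channel subunit, was the member that fell, at 120, 126 and 119 CPM in Kir and 177, 189 and 173 CPM in WT (-0.56 ± 0.14, adjusted p = 0.0423). Its call was lost in each of the 6 leave-outs, with log2 fold changes of -0.52 to -0.59 and adjusted p up to 0.221. Of 53 potassium channel genes other than inward rectifiers none was called, with a median of -0.22 and 41 fitted below 0. Kcnma1, the large-conductance calcium-activated channel, stood at 139, 150 and 127 CPM in Kir and 209, 197 and 177 CPM in WT (-0.48 ± 0.16, adjusted p = 0.230).

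Among 28 genes linked to sensory neuron activity only Nphs1 fell. Nphs1 (nephrin, an adhesion protein; ENSMUSG00000006649, GRCm38 chromosome 7, 30458315 to 30487223) stood at 27.6, 26.3 and 21.7 CPM in Kir, against 86.3, 76.0 and 82.6 CPM in WT. The groups were far apart and the log2 fold change was -1.70 ± 0.30 (edgeR adjusted p = 0.000938), the largest fall among called genes of at least 5 CPM. The call held in each leave-out (-1.60 to -1.77, adjusted p up to 0.0224) and was lost on log2(TPM + 1) (-1.51, limma adjusted p = 0.0736), on log2(TPM + 0.1) (-1.56, limma adjusted p = 0.412) and with the male P21 libraries alone (-1.56, edgeR adjusted p = 0.450). Nphs1 was also called lower in Kir at P0, P3, P5, P10 and P14, at -1.50 to -2.04, and not at P7 (-0.75 ± 0.27). S100a5, a calcium-binding protein whose level follows activity, stood at 917, 877 and 671 CPM in Kir and 872, 789 and 811 CPM in WT, with a log2 fold change of 0.00 ± 0.28. Kirrel2, the adhesion gene next to Nphs1 on the chromosome, stood at 584, 690 and 625 CPM in Kir and 740, 610 and 593 CPM in WT (-0.03 ± 0.35, adjusted p = 0.998). For both the groups overlapped. Their P21 differences were 1.39 ± 0.30 and 1.23 ± 0.38 log2 units above the mean of the other 6 ages, and neither was called (adjusted p = 0.139 and 0.708).

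Most odorant receptors, 636 of 997 tested, had a fitted fold change below 0, where 50.6% of all genes tested did, though few passed the test. Of the 997, 6 fell (0.602%, against 0.105% of all genes tested) and 1 rose, with a median of -0.20. All Kir libraries lay below WT in 193 of the 997 and above in 74, where 10.6% of all genes tested lay below and 8.29% above. Olfr522 and its neighbour Olfr523 on chromosome 7 fell by 1.59 ± 0.27 and 1.34 ± 0.26 on the log2 scale. Olfr522 stood at 3.36, 3.86 and 2.82 CPM in Kir, against 8.58, 13.2 and 8.47 CPM in WT (adjusted p = 0.000523), and kept its call in each leave-out. Olfr523 stood at 10.7, 8.88 and 6.65 CPM in Kir, against 19.2, 22.9 and 24.2 CPM in WT (adjusted p = 0.00259; 0.0709 without Kir replicate 3). The neighbours Olfr788 and Olfr789 on chromosome 10, at -1.40 ± 0.36 and -1.48 ± 0.33, and Olfr1303 and Olfr1309 on chromosome 2 were the others that fell, and each lost its call in 3 or more leave-outs. Olfr923 was the receptor that rose, at 6.38, 8.97 and 6.92 CPM in Kir and 1.83, 3.58 and 2.24 CPM in WT (1.54 ± 0.37, adjusted p = 0.0275; up to 0.242 in a leave-out). Odorant receptor genes together took 0.483%, 0.482% and 0.327% of gene counts in Kir and 0.460%, 0.498% and 0.447% in WT. Kir replicate 3 was the low library, and the means, 0.431% ± 0.0900 in Kir and 0.468% ± 0.0267 in WT (SD, n = 3 each), did not differ beyond the spread (two-sided exact permutation test, p = 0.8, where 0.1 is the smallest possible). Receptor genes with near copies were counted only by uniquely placed reads.

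Of the 12 largest falls the other 7 were not receptors or Nphs1. Olfm4, a secreted olfactomedin, stood at 6.38, 6.55 and 5.37 CPM in Kir, against 16.2, 13.9 and 19.4 CPM in WT (-1.44 ± 0.28, adjusted p = 0.00285; 0.0550 without Kir replicate 3). Abca5, a lipid transporter, stood at 236, 252 and 216 CPM in Kir and 355, 351 and 378 CPM in WT (-0.62 ± 0.15, adjusted p = 0.0366), and its call was lost in each of the 6 leave-outs (adjusted p up to 0.267). Necab2, a neuronal calcium-binding protein, was at -0.75 ± 0.18, Clip4, a microtubule-linked protein, at -0.73 ± 0.18, and the genes 4933407L21Rik, Gm10432 and Gm38192 at -1.09 ± 0.24, -0.93 ± 0.20 and -0.89 ± 0.21, each with the call lost in 3 or more leave-outs. Of all 21 genes called lower 2, Nphs1 and Olfr522, kept their call in every leave-out, against 52 of the 130 called higher. Of the clustered protocadherin genes Pcdhb16, Pcdhb20 and Pcdhb22 fell among 22 of the Pcdhb kind tested, by 0.53 ± 0.13, 0.52 ± 0.13 and 0.56 ± 0.13 on the log2 scale. All Kir libraries lay below WT in 12 of the 22, where 10.6% of all genes tested did. The calls of Pcdhb16, Pcdhb20 and Pcdhb22 were lost in 5 or 6 leave-outs (adjusted p up to 0.252).

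Other cell types of the epithelium showed no called gene with 1 exception. None of 23 supporting (sustentacular) cell genes, 18 globose basal cell genes, 15 horizontal basal cell genes, 32 cell cycle genes and 25 immature neuron genes was called. Fitted fold changes above 0 were the majority in the supporting cell list (21 of 23, median 0.20), the xenobiotic metabolism list (28 of 36, median 0.23, none called), the cell cycle list (27 of 32, median 0.11) and the cytosolic ribosomal protein list (35 of 35, median 0.24, none called). Over all genes tested 49.3% were fitted above 0. All Kir libraries lay above WT in 3, 8, 8 and 3 members of these lists, against 8.29% of all genes. The mean log2 CPM of the ribosomal list was 8.037, 7.9 and 7.773 in Kir and 7.465, 7.524 and 7.998 in WT. The groups thus overlapped, as they did for the cell cycle list. For the supporting cell and xenobiotic lists WT replicate 3, at 7.86 and 5.932, lay beside the lowest Kir values, 7.866 and 5.936. Krt5, a keratin of horizontal basal cells, stood at 49.4 to 70.3 CPM in Kir and 45.9 to 69.8 CPM in WT. Foxi1, a transcription factor of microvillous cells, rose by 0.56 ± 0.14, at 46.4, 44.0 and 56.5 CPM in Kir and 34.1, 26.4 and 39.2 CPM in WT (adjusted p = 0.0421), and lost its call in 4 leave-outs (adjusted p up to 0.404). It was the called gene of 18 microvillous and brush cell genes. None of the genes tested of glia (18), endothelium (15), fibroblasts (19), ciliated cells (18), bone and cartilage (27), muscle (10) or brain (16) was called, nor of immediate early genes (24), cell death and stress (39), or the Notch (22) and Wnt (44) pathways.

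Hemoglobin and lipocalin genes differed widely between libraries of a group. Hemoglobin genes summed to 571, 228 and 65.4 CPM in Kir and 42.6, 166 and 177 CPM in WT, and the 10 red blood cell genes had a median log2 fold change of 1.22, with 9 fitted above 0, 6 at an unadjusted p below 0.05, none called and none separated by group. Of the odorant-binding lipocalins Obp1b stood at 0.336, 99.2 and 443 CPM in Kir and 157, 537 and 257 CPM in WT, and Mup5 at 0.504, 54.5 and 144 CPM in Kir and 68.3, 246 and 399 CPM in WT. Kir replicate 1, a male library, was thus near 0 for both, and all 11 lipocalins tested were fitted below 0 with none called. The interferon-stimulated list was high in all 3 Kir libraries across these differences, at a mean log2 CPM of 4.94, 5.07 and 6.11 in Kir and 2.66, 2.48 and 2.66 in WT.

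The same genes were then read at the other ages, in Kir and WT libraries that P21 does not share. Of the 130 genes higher at P21, 122 (93.8%) were also called higher at P10 and 120 (92.3%) at P14. These are 21.7% of the 562 genes called higher at P10 and 78.4% of the 153 at P14, of 19927 tested at each age. At P0, P3, P5 and P7, 69, 32, 4 and 11 genes were called higher, and 3, 14, 3 and 9 of these were among the 130. The median log2 fold change of the 130 was 0.05 at P0, 1.21 at P3, 0.88 at P5, 1.27 at P7, 2.47 at P10, 2.43 at P14 and 2.42 at P21. Members of the interferon-stimulated list called higher, of 43 tested, numbered 0, 5, 0, 2, 41, 40 and 40 at these 7 ages in the same order. Of the 21 genes lower at P21, 5 were among the 58 called lower at P10 and 6 among the 82 called lower at P14. Odorant receptors were 44 of the 82 genes called lower at P14 and 6 of the 21 at P21, with medians of -0.60 and -0.20.

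Whether the genotype difference itself changed was tested against the other ages. Against the mean of the other 6 ages 3 genes were called (0.0151%), all higher, and 893 had an unadjusted p below 0.05 (4.48%). Ifi27, a mitochondrial interferon effector, stood at 242, 239 and 328 CPM in Kir P21, against 40.2, 34.6 and 37.1 CPM in WT P21, a log2 fold change of 2.85 ± 0.35, and its difference was 1.92 ± 0.36 above the other ages (adjusted p = 0.0480). Cyp26b1, the enzyme that breaks down retinoic acid, stood at 25.6, 34.9 and 40.8 CPM in Kir P21, against 21.4, 16.98 and 14.8 CPM in WT P21 (0.93 ± 0.20, adjusted p = 0.0105). This P21 call was lost without Kir replicate 3 (0.78, adjusted p = 0.183) and without WT replicate 2 or 3 (adjusted p = 0.0786 and 0.143), on log2(TPM + 1) and log2(TPM + 0.1) (limma adjusted p = 0.103 and 0.174), with the 6 P21 libraries fitted by themselves (edgeR adjusted p = 0.0703) and with the male P21 libraries alone (0.54, adjusted p = 1). Its fitted difference was below 0 at P3, P5, P7, P10 and P14, and its P21 difference was 1.25 ± 0.22 above the other ages (adjusted p = 0.0359). Gm11816, a gene with 31 counts over the Kir and 1 count over the WT libraries at P21 (count ratio 32.4, 95% counting interval 5.4 to 1320), was at 5.48 ± 1.04 by the same measure (adjusted p = 0.0480). Leaving out a P21 library left 1 gene called without Kir replicate 1 or WT replicate 1 and none in the other 4 leave-outs. Gm11816 is annotated as antisense, and reads of the opposite strand cannot be told apart where strand is not stated. Against P14 none was called by edgeR, 353 had an unadjusted p below 0.05 (1.77%), and DESeq2 called 2.

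**Figure D5:**
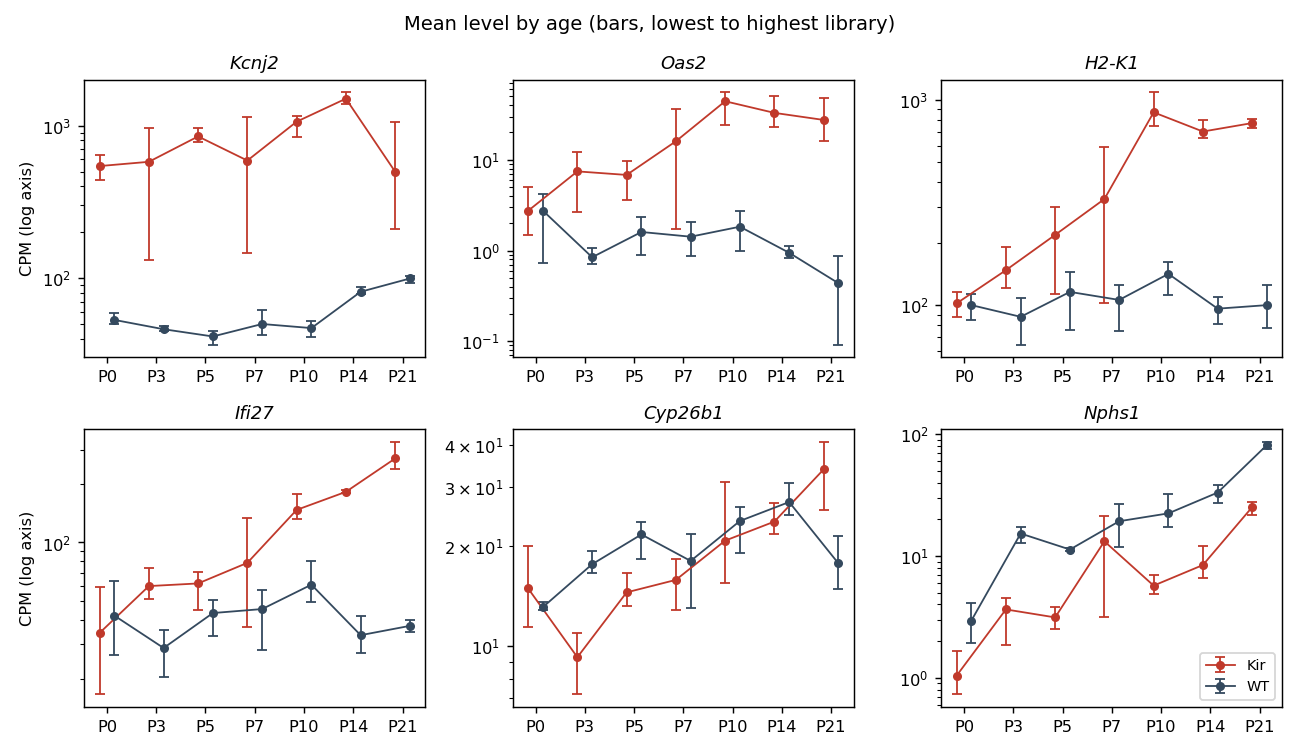
Mean CPM on a log axis at each age for Kir and WT, for 6 genes, with bars from the lowest to the highest library. Oas2 and H2-K1 separate widely between the genotypes at P10, P14 and P21. Kcnj2 is above WT at each age, with a wide range in Kir at P3 (132 to 959 CPM), P7 (146 to 1140 CPM) and P21 (209 to 1050 CPM). The mean of Nphs1 is lower in Kir at each age, and the difference was called at all ages but P7. The WT level of Nphs1 is highest at P21.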

How the data were processed

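Polyadenylated RNA of olfactory epithelium was extracted in TRIzol and made into Illumina libraries, per the labels' protocols. The authors deposited a table of whole-number counts and another of TPM, both per gene. bcl2fastq 2.18, STAR 2.6.1c, RSEM and build mm10 were used, per the submitters' processing notes; neither annotation nor strand setting is given in the sources used here, so overlapping antisense genes cannot be told apart. Lines of the deposited counts that name no gene stayed out of library sizes and tests. In the P21 libraries multiply mapped reads were 7.53% to 9.72% of reads, unmapped 3.43% to 10.00%, outside genes 7.31% to 11.84% and ambiguous 3.25% to 3.80%, so near copies rest on uniquely placed reads.

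Counts of all 47 libraries were fitted once with edgeR 4.0.16 (R 4.3.3; TMM, filterByExpr by group, robust quasi-likelihood F test, two-sided), with a mean per group and the title prefix, whose meaning is not given, as covariate. All 6 P21 libraries share a prefix. The contrasts were Kir minus WT at P21, that difference minus the mean of the other 6 ages' and minus P14's. P-values were adjusted over 19927 genes. The counts covered 54532 genes, of which 54495 matched GENCODE M21. Alternatives used DESeq2 1.42.0 and limma 3.58.1. Intervals of count ratios cover counting error only.

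The comparison, the 44 gene lists and the markers were chosen with earlier results of these data known. Genes were named by a rule: Kcnj2, Oas2 and H2-K1; the 12 largest rises and falls among called genes of at least 5 CPM in a group with no overlap; up to 4 members of each list by p and all called members where 5 or fewer were called; up to 10 called genes of each age contrast. Others are said to have been chosen after their values were seen or are further called members of a list. The depth, 10714518 to 15461615 gene counts per library, puts 1 count near 0.1 CPM. Alternatives were other scalings, filters, tests and units, no prefix term, the P21 libraries alone, a replicate block and leaving out each P21 library; a sex term and the male libraries alone were added after seeing the data.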

Additional observations from a re-analysis of the deposited data

Results flagged for a closer look

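Among genes whose Kir minus WT difference at P21 was tested against the mean of the other 6 ages, 3 differed. Ifi27 was at 1.92 log2 units above the other ages; its difference was 2.44 ± 0.35 at P14 and 2.85 ± 0.35 at P21. Cyp26b1 was at 1.25; its difference was -0.92 ± 0.21 at P3, -0.20 ± 0.20 at P14 and 0.93 ± 0.20 at P21. Gm11816 was at 5.48, on 31 counts in Kir and 1 count in WT at P21; its difference was -2.74 ± 1.19 at P3 and 0.40 ± 1.1 at P14. The other ages differ from P21 in title prefix at P5, P10 and part of P7, and without the prefix term none of the 3 was called.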

How the results depend on the processing

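None of the 151 called genes reversed its direction under the alternatives run, directions of list medians were not recomputed, and scaling moved the median gene by less than 0.1 log2 units. Of the 151 genes called, 151 kept the call with DESeq2, 148 and 147 with other scaling factors, 131 without a filter, 104 and 94 of 149 tested on log2(TPM + 1) and log2(TPM + 0.1), 133 without the prefix term and 93 of 148 tested with the P21 libraries alone. Leaving out each P21 library in turn gave 64 to 150 genes called, 57 to 136 higher and 7 to 14 lower. With male P21 libraries alone 33 were called, 33 higher and 0 lower.

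Calls split into 152 higher and 63 lower with DESeq2, 104 and 35 on log2(TPM + 1) and 97 and 36 with the P21 libraries alone, where the split was 130 and 21 as reported. The number called lower, 21, was 9 without a filter on low counts, 63 with DESeq2, 35 on log2(TPM + 1), 13 on log2(TPM + 0.1) and 36 with the P21 libraries alone. Against the other 6 ages the 3 genes called, all higher, became 1 with a filter of 1 CPM, 24 with DESeq2 (18 higher, 6 lower), 1 on log2(TPM + 1) and 1 on log2(TPM + 0.1) (0 higher, 1 lower each), 0 without the prefix term, 1 with the sex term, 0 with male P21 libraries alone and 0 to 1 in leave-outs, and upper-quartile factors added 1 lower. Against P14 the 0 genes became 2 with DESeq2 (1 higher, 1 lower), 1 on log2(TPM + 1) (0 higher, 1 lower) and 5 on log2(TPM + 0.1) (2 higher, 3 lower). Interferon-stimulated genes called numbered 23 to 40 of 43 in leave-outs and 15 with male P21 libraries alone, and class I genes 11 to 17 of 26 and 9. Kcnj2 kept its direction, at 1.78 (limma adjusted p = 0.172) on log2(TPM + 1), 1.81 (0.216) on log2(TPM + 0.1), 2.32 (edgeR adjusted p = 0.314) with the P21 libraries alone, 1.07 (adjusted p = 1) with male P21 libraries alone and 1.16 to 2.69 in leave-outs. The cause of these shifts was not tested, except that the P21 libraries alone and the leave-outs use fewer samples.

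Same-numbered Kir and WT libraries did not deviate together (r = -0.11, 0.03 and -0.06), so the numbers were not taken as pairs. With the replicate block 141 genes were called, 122 higher and 19 lower, 138 of them shared; Kcnj2 was at 1.88 (adjusted p = 0.0942), and 0 genes were called against the other 6 ages.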

Other observations

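Some genes called higher at P21 belong to no list fixed here, 60 of the 130. Named after their values were seen, Ly6e, a small surface protein that interferon induces, stood at 560, 528 and 718 CPM in Kir and 202, 202 and 278 CPM in WT (1.40 ± 0.26, edgeR adjusted p = 0.00148). Shisa5, a membrane protein, stood at 179, 188 and 373 CPM in Kir and 94.9, 85.6 and 101 CPM in WT (1.39 ± 0.21, adjusted p = 6.31e-05). Spred1, an inhibitor of Ras signalling, and its neighbour Fam98b on chromosome 2 both rose, by 1.31 ± 0.24 and 0.58 ± 0.14, with the call lost without Kir replicate 3 (adjusted p = 0.103 for Spred1) and, for Fam98b, in 5 leave-outs. Tmprss2, a surface protease next to Mx2 on chromosome 16, stood at 135, 121 and 102 CPM in Kir and 77.4, 71.6 and 85.1 CPM in WT (0.61 ± 0.12, adjusted p = 0.00190), with Kir replicate 3 the lowest Kir library.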
